A study of Homo sapiens with 24 samples.

Results

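Cerebral organoids grown for 30 days from H9 cells that carried the shRNA labelled sh1 were compared with organoids from H9 cells that carried the shRNA labelled sh4. Both short hairpin RNAs were designed against KDM2A, and the labels give both sets the genotype of a KDM2A knockdown, so the comparison is between 2 knockdown constructs and not between knockdown and control. The members are the 3 organoid libraries titled sh1 and the 3 titled sh4, which is 6 of the 24 libraries of the series and 6 of its 9 organoid libraries. Of the 61544 genes in the deposited organoid table, 18845 passed a filter on low counts and were tested. The 3 organoid libraries titled NC, from H9 cells given a scrambled shRNA and labelled as wild type, were used to place the level of each gene and enter no test here.

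H9 is an established human embryonic stem cell line. All 3 sets share the H9 background, lentiviral infection, selection with puromycin and an organoid method modified from that of Lancaster, and messenger RNA was taken by its poly(A) tail and sequenced as read pairs. The labels name neither clones nor separate cultures behind the 3 libraries of a set, so every p-value here measures the spread between libraries, which may be technical, and construct and set of organoids cannot be told apart.

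Cerebral organoids start from aggregates of stem cells that are guided towards neuroepithelium, the sheet of neural stem cells that lines the embryonic brain and gives rise to neurons and glia. Neural crest, which leaves the edge of that sheet, makes peripheral neurons and Schwann cells, and the dorsal midline of the forebrain makes the choroid plexus, the epithelium that secretes cerebrospinal fluid. Aggregates of pluripotent cells can also form tissue outside the nervous system: endoderm of the yolk sac or liver type, which secretes plasma proteins, surface and extraembryonic epithelium, mesenchyme, vessels and blood.

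KDM2A, the histone demethylase that the hairpins target (chr11:67119269-67258087 on GRCh38), stood at 109.9, 116 and 104 CPM (read counts scaled to a common library size) in the sh1 libraries, 105, 95.6 and 104 CPM in the sh4 libraries and 99.4, 104 and 96.8 CPM in the NC libraries. The 3 sets overlapped, and the log2 fold change of sh1 over sh4 was 0.12 ± 0.07 (SE) with an adjusted p of 0.198 by edgeR's quasi-likelihood test. The level of its mRNA therefore gives no check of the labels in these organoids. CPM are scaled by TMM factors (a correction for composition) over the 9 organoid libraries, and a positive log2 fold change means a higher level with sh1 throughout.

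The sh1 libraries held 17256244 to 17671819 counts, the sh4 libraries 18080472 to 18853737 and the NC libraries 15899243 to 17365919. The 10 most abundant genes took 6.73% to 7.41% of the counts with sh1, 11.8% to 14.4% with sh4 and 5.38% to 5.81% with NC. On the first principal component, which held 73% of the variance of log2 CPM, the sh1 libraries lay between the NC and the sh4 libraries. On the second, which held 16%, the sh1 libraries lay apart from both other sets. The root mean square log2 difference between pairs of libraries was 0.314 to 0.412 within sh1, 0.412 to 0.544 within sh4 and 0.721 to 1.15 between sh1 and sh4. Library 1 of sh4 stood apart from libraries 2 and 3 of sh4, farther from the sh1 and NC sets, and library 2 of sh4 kept more of the neuronal and neural crest transcripts than its fellows. List counts that changed by over 1.5 times when a library was left out, and calls of single genes that were lost, are named with the list or gene.

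**Figure D1:**
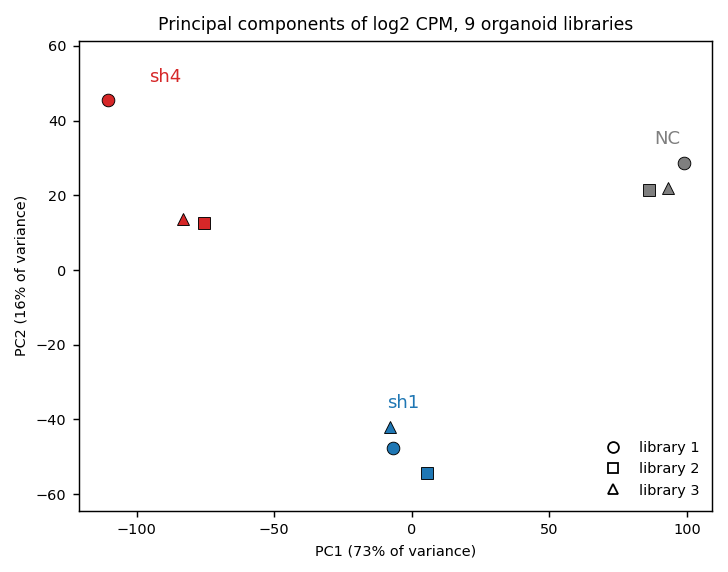
Principal components of log2 CPM in the 9 organoid libraries, with PC1 (73% of the variance) on the x axis and PC2 (16%) on the y axis. Each point is a library, its colour the set and its shape the library number. The sh1 libraries lie between NC and sh4 on PC1, and library 1 of sh4 lies farthest from NC.

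A gene was called where its adjusted p (Benjamini-Hochberg over the 18845 genes, edgeR's quasi-likelihood test) was under 0.05 and its log2 fold change was at least 1 in size. By this rule 3498 genes differed between sh1 and sh4, which is 18.6% of those tested. Of these, 2166 genes (11.5% of those tested) were higher with sh4 and 1332 (7.07%) were higher with sh1. Without the fold threshold 8697 genes had an adjusted p under 0.05, or 46.2% of those tested. The 3 sh1 and 3 sh4 values did not overlap for 3474 of the 3498 called genes, beside 61% of all genes tested. The median log2 fold change of all genes tested was 0.01.

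The split between directions depended on the scaling. With libraries scaled by their totals alone the median of all genes moved from 0.01 to 0.25, and 55.5% of the called genes were higher with sh1 instead of 38.1%. The log2 fold changes below are relative to the TMM scaling, and where a call is lost under scaling by totals the value is given. Mitochondrially encoded genes took 5.05% to 6.02% of the counts with sh4 and 3.14% to 3.29% with sh1, and their part in the other differences was not tested, and 3482 genes were called with those genes left out.

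The NC level was outside the span of the sh1 and sh4 means for most called genes, on the sh1 side. Of the genes higher with sh4, NC lay below both means for 72.5% and between them but nearer to sh1 for 16.6%. Of the genes higher with sh1, NC lay above both means for 60.4%, below both for 12.3%, and between them for the rest. So for most called genes the sh1 mean lay between the NC and sh4 means.

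**Figure D2:**
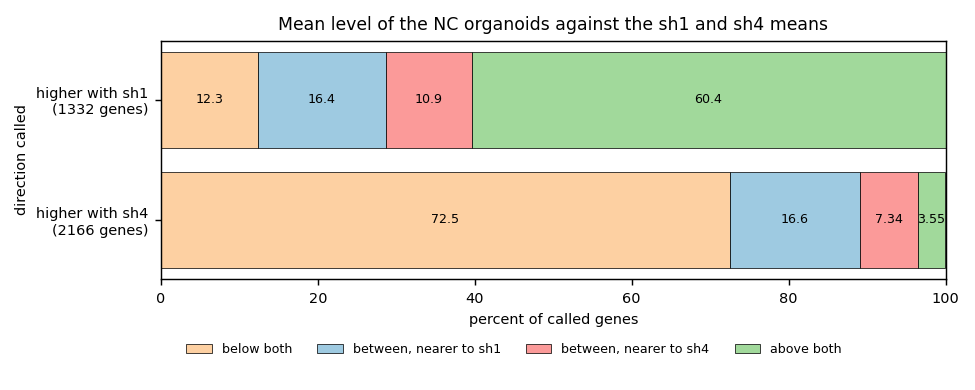
Where the mean log2 CPM of the NC organoids lies against the sh1 and sh4 means, as percent of the called genes (x axis) for genes called in each direction (y axis). NC is below both for 72.5% of the 2166 genes higher with sh4 and above both for 60.4% of the 1332 genes higher with sh1.

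The gene lists that follow separate tissues. The count of called genes in each list stands beside 7.07% of all genes tested higher with sh1 and 11.5% higher with sh4. The median log2 fold change ran from -2.32 for epithelial genes and -2.20 for genes of liver and visceral endoderm, both on the sh4 side, to 1.79 for neuronal genes on the sh1 side. In a bulk library, fewer cells of a type and less RNA per cell cannot be told apart, so each list describes transcripts of a tissue and not a number of cells.

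**Figure D3:**
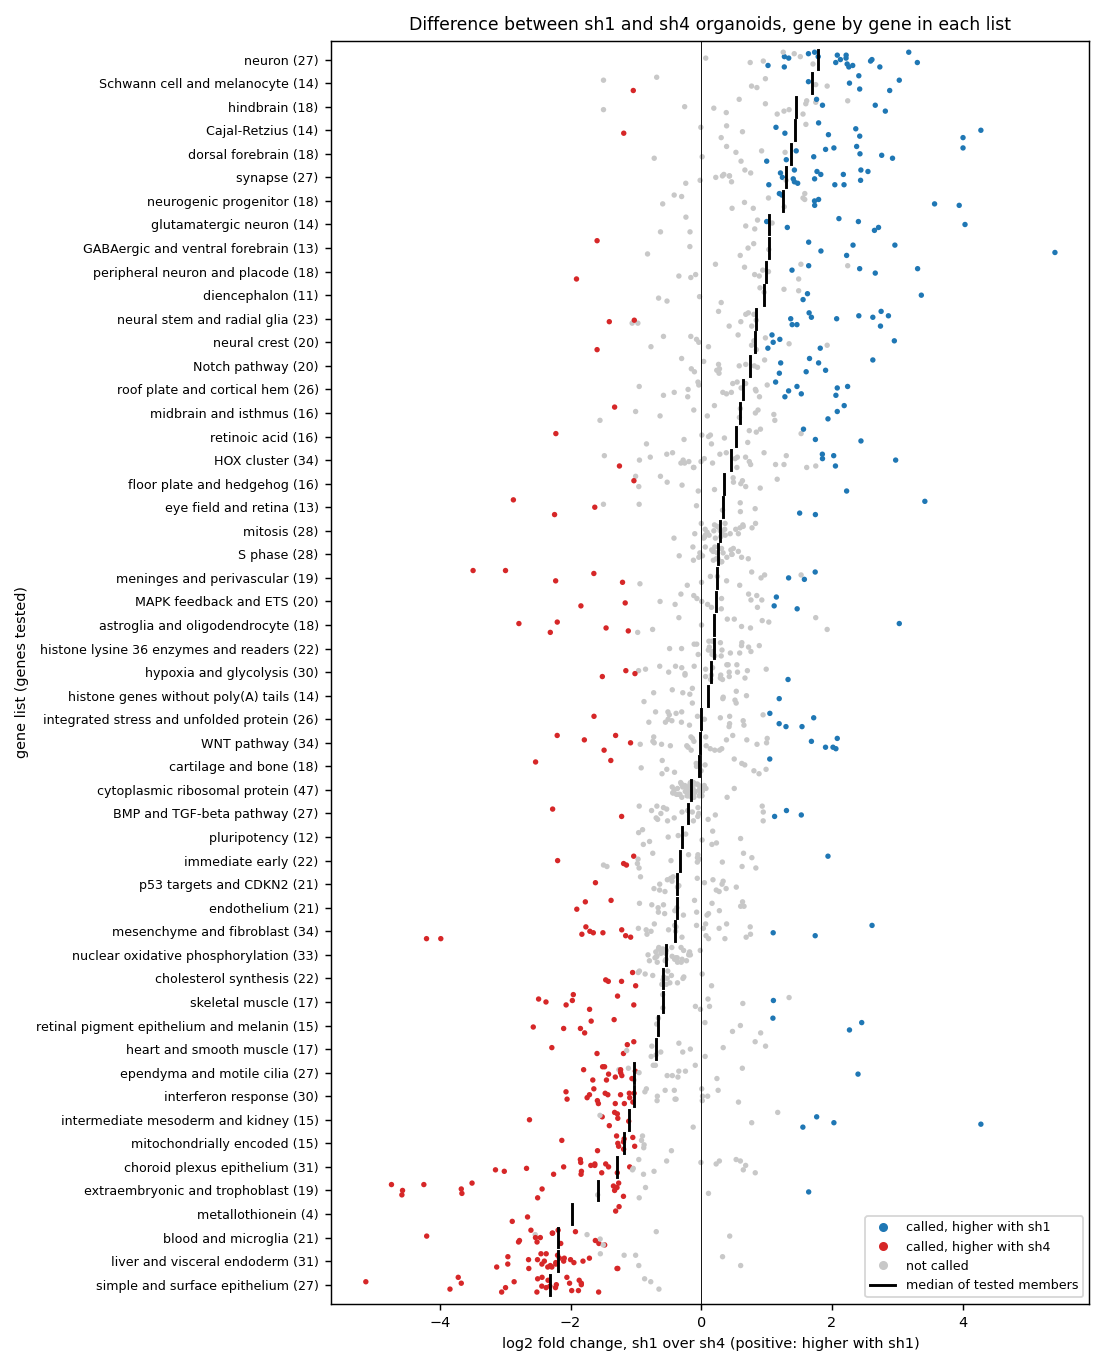
Log2 fold change of sh1 over sh4 (x axis) for each tested gene of the 53 lists (y axis, with the number of genes tested). Blue points were called higher with sh1, red points higher with sh4 and grey points were not called, and black bars are medians. Neuron, with a median of 1.79, is at the top and simple and surface epithelium, with -2.32, at the bottom.

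Most transcripts of liver and visceral endoderm were higher with sh4. The 32 listed genes summed to 104601, 46761 and 29883 CPM in the sh4 libraries, 11455, 5297 and 15586 CPM in the sh1 libraries and 142 to 673 CPM in the NC libraries. Every sh4 library was above every sh1 library, and library 1 of sh4 was the highest of all. Of 31 genes tested, 25 were called higher with sh4 and none higher with sh1, beside 11.5% of all genes, and their median log2 fold change was -2.20 beside 0.01 for all genes. NC was below both sets for 28 of the 31.

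AFP, alpha-fetoprotein, is the main plasma protein of the yolk sac and fetal liver (chr4:73431138-73456174 on GRCh38). It stood at 49772, 22042 and 13485 CPM with sh4, 4727, 2160.0 and 6816 CPM with sh1 and 23.2, 238 and 26.2 CPM in NC. The sets did not overlap, and sh4 was 6.23-fold higher than sh1 (log2 -2.64 ± 0.58, adjusted p = 0.0104). ALB, serum albumin, stood at 7335, 2794 and 1866 CPM with sh4 and 703, 381 and 1131 CPM with sh1, and no NC library exceeded 0.372 CPM. APOA1, the main protein of high-density lipoprotein, was 5.68-fold higher with sh4, at 4394, 2338 and 1541 CPM against 529, 224 and 704 CPM. The fibrinogen chains FGA, FGB and FGG, which form the clot precursor, were higher with sh4 by log2 -2.96, -2.45 and -2.64. VTN, vitronectin, was 8.75-fold higher with sh4, at 542 to 1576 CPM against 48.3 to 163 CPM. APOH, a plasma glycoprotein, had no count in any NC library and stood at 7.74, 6.10 and 16.5 CPM with sh1 and 138, 60.3 and 37.5 CPM with sh4. For each of these genes the lowest sh1 value was in library 2, and the highest sh4 value was in library 1.

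The transcription factors of endoderm in the list did not all move the same way. HNF4A, a nuclear receptor, stood at 77.6, 36.7 and 25.6 CPM with sh4 and 14.6, 10.1 and 18.0 CPM with sh1, a log2 fold change of -1.71 ± 0.42 (adjusted p = 0.0154). GATA4, a zinc finger factor of endoderm and heart, stood at 13.2, 4.83 and 6.04 CPM with sh4 and 1.58, 1.53 and 1.82 CPM with sh1. Both were called higher with sh4, but GATA4 in NC (2.85 to 4.87 CPM) reached into the sh4 range. FOXA1 and FOXA2, forkhead factors of endoderm, were not called, with adjusted p of 0.0793 and 0.0571 by edgeR's quasi-likelihood test, nor were GATA6 at log2 0.33 and SOX17 at 0.60, both factors of early endoderm. FOXA1 passed without library 3 of sh4 (adjusted p = 0.0183) and FOXA2 without library 2 of sh4 (0.0436). The call count rested in part on library 1 of sh1: without library 1 of sh1, 13 of the list were called instead of 25. ALB (adjusted p = 0.0568) and HNF4A (0.0533) lost their calls without that library, and HNF4A also without library 2 of sh1 (0.0516). Without library 1 of sh4, the most extreme, 23 were still called.

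Since these genes moved together with HNF4A, their promoters were searched for a short form of its binding motif. The windows are RefSeq promoters on GRCh38.p14, from 250 bases before to 50 bases after the start of each gene, and the motif was chosen after the expression values were seen. CAAAGTCCA, a form of the HNF4 motif, was sought on both strands and was present in 135 of 35116 windows (0.384%). It was in 21 of 1957 windows of genes higher with sh4 (1.07%), 3 of 1436 windows of genes higher with sh1 (0.209%) and 73 of 19308 windows of genes tested (0.378%). Among 28 windows of the liver list, the letters were found in 1, that of AHSG, which encodes fetuin-A. This window (chr3:186612810-186613109, plus strand) is shown because it holds the match, 5′ to 3′ on the strand of the gene, with the matched letters in capitals. The match lies on the strand opposite to the gene, from position -179 from the start site. A match is a run of letters and not a measured binding site.
AHSG: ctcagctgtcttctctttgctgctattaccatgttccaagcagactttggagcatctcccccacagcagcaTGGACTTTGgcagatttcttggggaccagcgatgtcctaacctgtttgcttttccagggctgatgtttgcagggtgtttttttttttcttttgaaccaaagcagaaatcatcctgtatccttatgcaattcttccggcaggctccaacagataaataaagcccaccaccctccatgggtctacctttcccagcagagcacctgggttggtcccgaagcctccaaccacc

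FGA, the alpha chain of fibrinogen, stood at 6089.8, 2626 and 1453 CPM with sh4 and 503, 199 and 604 CPM with sh1, with no overlap, and no NC library exceeded 11.3 CPM. AHSG stood at 2061, 855 and 567 CPM with sh4 and 323, 116 and 376 CPM with sh1, and its call (log2 -2.10 ± 0.59, adjusted p = 0.0242) was lost without library 1 of sh1 (adjusted p = 0.0644) and without library 2 of sh1 (0.0519), and in the fit over all 9 libraries (0.0552).

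**Figure D4:**
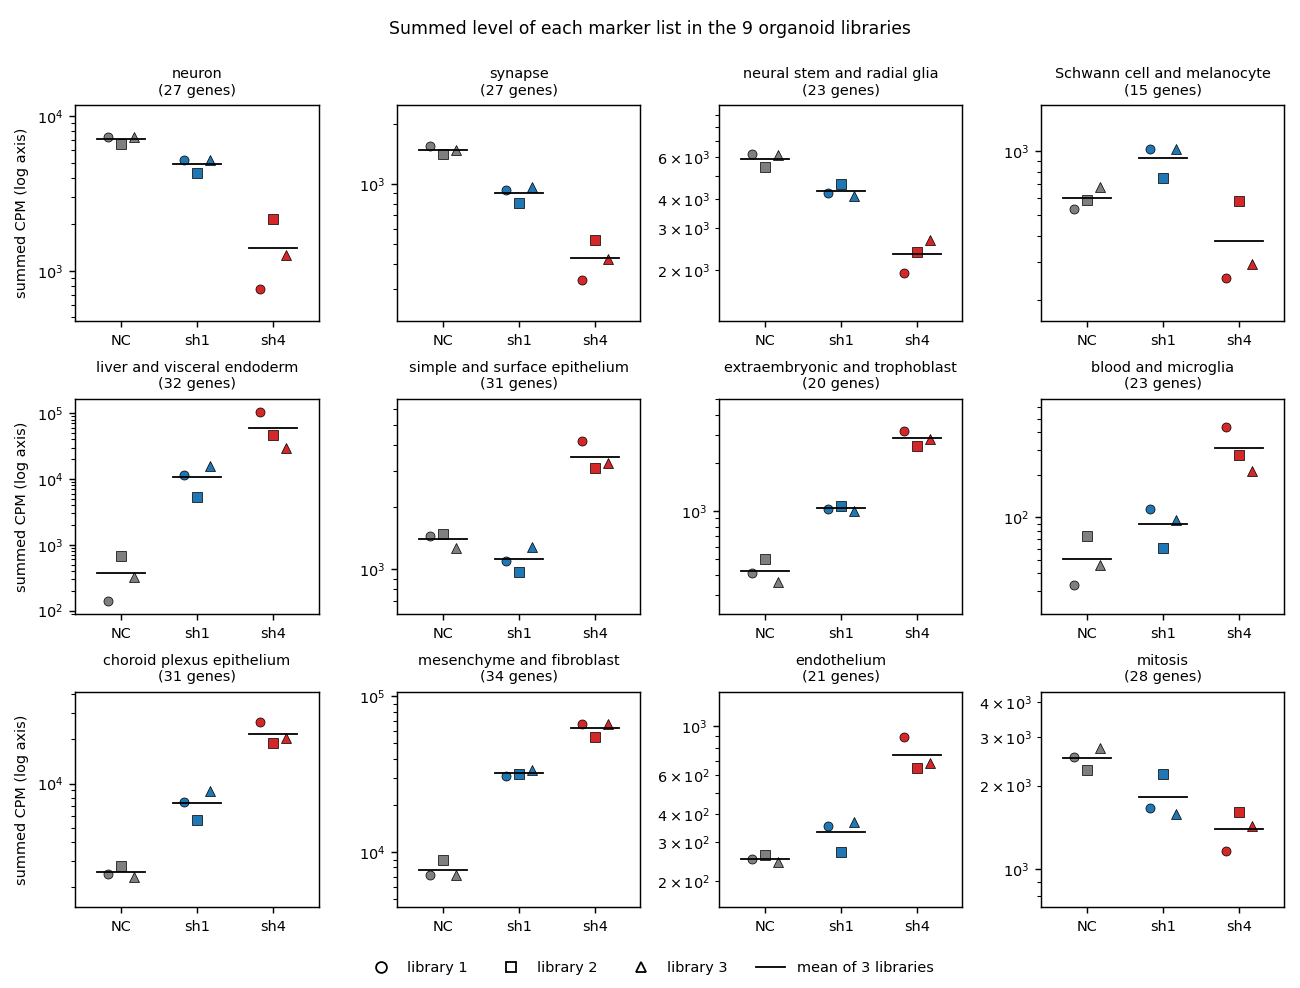
Summed CPM (y axes, log scale) of 12 gene lists in the 9 organoid libraries, by set (x axes). Each point is a library and each bar the mean of 3. The liver and visceral endoderm sum is 142 to 673 CPM in NC, 5297 to 15586 CPM with sh1 and 29883 to 104601 CPM with sh4, while the neuron sum falls from 6638 to 7316 CPM in NC to 4315 to 5209 CPM with sh1 and 757 to 2159 CPM with sh4. IGF2, which is not specific to choroid plexus, makes up most of the choroid plexus sum.

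Several genes expressed by intestinal epithelium, chosen after their values were seen, were also higher with sh4. CDH17, the liver-intestine cadherin, stood at 129.9, 70.5 and 66.9 CPM with sh4, 15.9, 15.2 and 24.2 CPM with sh1 and at most 0.638 CPM in NC. VIL1, villin of the microvillus core, stood at 229, 114 and 77.3 CPM and 36.5, 24.1 and 52.0 CPM. Both sets of 3 were separate, and the log2 fold changes were -2.28 ± 0.31 and -1.90 ± 0.44. The galectin LGALS4, the trefoil peptide TFF1, the guanylate cyclase receptor GUCY2C and the mucin MUC13 were likewise higher with sh4, by log2 -2.89, -3.35, -2.81 and -3.97. SLC15A1, the peptide transporter of the small intestine, and UGT3A1, a glycosyltransferase, were among the 15 genes with the lowest fold change, at log2 -3.82 ± 0.47 and -3.77 ± 0.60. In NC none of these 8 genes exceeded 6.45 CPM.

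The other leading genes on the sh4 side included complement components, plasma proteins and secreted inhibitors. C4B, a complement component whose reads are hard to separate from those of its near-identical neighbour, stood at 65.3, 55.9 and 71.7 CPM with sh4 and 2.29, 1.69 and 1.99 CPM with sh1, the largest fold change among the 15 leading genes on this side (log2 -5.01 ± 0.16, adjusted p = 5.8e-05). C3, the central complement component, stood at 202, 179 and 261 CPM against 12.6, 9.70 and 16.98 CPM, and CFB, complement factor B, at 118, 77.9 and 48.2 CPM against 6.16, 4.03 and 9.76 CPM. For C4B and C3 the 3 sh4 libraries were alike, with no library standing apart, whereas CFB was highest in library 1 of sh4. SLPI, a secreted protease inhibitor of epithelia, was higher with sh4 by log2 -4.58, and TFPI2, a protease inhibitor abundant in placenta, by -4.70. The liver products FGL1 and HPX (hemopexin) and the organic anion transporter SLC22A7 were higher by -3.66, -3.37 and -3.44. F13A1, the A chain of clotting factor XIII that macrophages also make, stood at 66.9, 46.9 and 28.9 CPM with sh4 and 7.52, 0.599 and 2.76 CPM with sh1.

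Genes of simple and surface epithelium were higher with sh4 for 24 of 27 tested and higher with sh1 for none, with a median of -2.32. Unlike the liver list, the sum of this list overlapped between NC (1267 to 1491 CPM) and sh1 (971 to 1284 CPM), and the sh4 libraries stood above both at 3097 to 4203 CPM. For 21 of the 27 genes the NC mean lay between the sh1 and sh4 means. EPCAM, an adhesion molecule of epithelia and of stem cells, stood at 228, 137 and 119 CPM with sh4, 43.0, 27.0 and 52.7 CPM with sh1 and 69.5, 66.4 and 63.4 CPM in NC. CDH1, E-cadherin, showed the same order, at 399, 272 and 274 CPM, 108, 64.3 and 146 CPM and 174, 168 and 137 CPM. The sh1 libraries had the lowest mean of the 3 sets for both genes. KRT8 and KRT18, the keratin pair of simple epithelia, were 3.57-fold and 4.16-fold higher with sh4 (log2 -1.83 ± 0.11 and -2.06 ± 0.13). Both have many processed pseudogenes, so their counts are uncertain to that extent.

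The factors of stratified and surface epithelium were low but separated the sets well. TP63, the p53 relative that specifies stratified epithelium, stood at 5.18, 5.12 and 3.87 CPM with sh4 and 0.382, 0.327 and 0.386 CPM with sh1 (log2 -3.67 ± 0.28, adjusted p = 0.000794). GRHL2, a grainyhead factor of epithelial junctions, stood at 23.1, 21.6 and 18.97 CPM and 3.49, 1.85 and 2.32 CPM. Each sh4 library was more than 3 times any sh1 library for both genes, and the NC mean lay between. SFN, the 14-3-3 protein of keratinocytes, had at most 0.109 CPM in any sh1 library against 3.76, 3.65 and 2.90 CPM with sh4 and 1.98, 3.35 and 2.76 CPM in NC.

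The list of extraembryonic and trophoblast genes, which also takes in markers of amnion, was higher with sh4 for 14 of 19 genes tested and higher with sh1 for 1, with a median of -1.58. GABRP, a GABA receptor subunit found in amnion and other epithelia (chr5:170763350-170814047 on GRCh38), stood at 404, 397 and 286 CPM with sh4, 37.8, 0.708 and 1.87 CPM with sh1 and 23.2, 24.5 and 7.86 CPM in NC. The sh4 libraries were alike, whereas library 1 of sh1 was more than 20 times the other sh1 libraries. VTCN1, an immune checkpoint ligand of trophoblast and amnion, had the same uneven sh1 values, 11.7, 0.708 and 1.10 CPM, against 135, 104 and 84.5 CPM with sh4. Their log2 fold changes were -4.74 ± 1.19 (adjusted p = 0.0163) and -4.58 ± 0.84 (adjusted p = 0.00554). Library 1 of sh1 was also the only sh1 library with reads of CGA, the alpha subunit of chorionic gonadotropin, at 5.56, 0 and 0 CPM against 14.3, 33.7 and 22.9 CPM with sh4. The call of CGA (log2 -3.66 ± 1.21, adjusted p = 0.0427) was lost with DESeq2, with a replicate block and without library 2 or 3 of either set, with adjusted p from 0.0712 (block) to 0.245 (DESeq2) over those settings.

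Other members of the list were called too. CGB5, from the cluster of near-identical beta subunit genes, stood at 1.17 to 3.08 CPM with sh4 and 0.109 to 0.276 CPM with sh1, and reads of that cluster are uncertain as to the gene. GATA3, a factor of trophoblast and surface ectoderm, was higher with sh4 by log2 -1.33 ± 0.24, and IGFBP3, a binding protein for insulin-like growth factors, by -1.34 ± 0.13. HAND1, a factor of extraembryonic mesoderm, trophoblast and heart, was higher by -1.19 ± 0.15, which dropped to -0.95 under scaling by totals and so lost its call. XAGE2, a cancer and placenta antigen, stood at 3.87 to 7.00 CPM with sh4 and at most 0.491 CPM with sh1. The member called higher with sh1 was ISL1, a LIM homeodomain factor that amnion, motor neurons and sensory neurons all express, and its values are given with the peripheral neurons.

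Genes of blood and microglia, the macrophages of the brain, were higher with sh4 for 15 of 21 genes tested and higher with sh1 for none, with a median of -2.19. The list summed to 214 to 433 CPM with sh4, 60.6 to 113 CPM with sh1 and 32.9 to 74.1 CPM in NC, so its transcripts were rare in every set. CD68, a lysosomal protein of macrophages, stood at 76.9, 50.4 and 48.3 CPM with sh4 and 10.6, 3.05 and 11.6 CPM with sh1 (log2 -2.80 ± 0.45, adjusted p = 0.00365). CSF1R, the growth factor receptor that macrophages need, stood at 31.0, 18.0 and 10.9 CPM and 4.85, 1.36 and 4.08 CPM. CD14, a receptor for bacterial lipopolysaccharide, was 18.4-fold higher with sh4, at 7.79 to 16.3 CPM against 0.272 to 0.827 CPM. The sh1 and sh4 values did not overlap for these genes. PTPRC, the CD45 antigen of all white blood cells, was higher with sh4 too. It stood at 5.38, 5.53 and 8.52 CPM with sh4 and 2.07, 0.817 and 0.496 CPM with sh1. AIF1, TYROBP, FCER1G and TREM2, which act in macrophages, were also higher with sh4, by log2 -1.48 to -2.51 over the 5 genes with PTPRC. The other 6 genes tested were not called. P2RY12, a receptor of microglia, lay on the sh1 side at log2 0.44 (adjusted p = 0.462 by edgeR's quasi-likelihood test). CD74 fell short of the fold threshold at log2 -0.69. C1QA (adjusted p = 0.0634) and the globins HBE1 (0.141), HBZ (0.319) and HBG2 (0.327) lay on the sh4 side but missed on adjusted p. The calls therefore include no globin.

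Choroid plexus genes were higher with sh4 for 17 of 31 tested and higher with sh1 for none (1 under scaling by totals), with a median of -1.28. IGF2, given below with the imprinted genes and not specific to this tissue, is among the 17. It made up most of the summed CPM of the list in every library. TTR, the thyroxine carrier, stood at 7792, 4375 and 3105 CPM with sh4, 1280.4, 643 and 1627 CPM with sh1 and 9.39, 66.0 and 17.8 CPM in NC, but the liver and the retinal pigment epithelium secrete TTR too, and it is on those lists. FOLR1, the folate receptor of the choroid plexus, did not follow the liver genes across the sh4 libraries. It stood at 14.2, 19.1 and 21.3 CPM with sh4, lowest in library 1. With sh1 it stood at 3.87, 1.85 and 2.81 CPM, lowest in library 2 as the liver genes were. KCNJ13, a potassium channel, had 11.7, 16.5 and 21.5 CPM with sh4, again lowest in library 1, and 7.41, 2.94 and 5.02 CPM with sh1. AQP1, the water channel of the plexus, of vessels and of kidney, stood at 813 to 1113 CPM against 201 to 326 CPM, and CA12, a carbonic anhydrase of secretory epithelia, at 89.4 to 107 CPM against 7.74 to 13.9 CPM. The log2 fold changes were -2.67 ± 0.30, -1.69 ± 0.37, -1.84 ± 0.20 and -3.15 ± 0.20 in that order. CLIC6, a chloride channel, was called at -1.09 ± 0.24 and fell short at -0.86 under scaling by totals and at -0.86 without library 2 of sh1. Of the 14 genes not called, HTR2C, TRPM3, TRPV4, SLC13A4, SLC4A5, SLC12A2 and CA2 had log2 fold changes of -1.05 to -0.01. OTX2, SLC4A10, IGFBP2, STK39, SULF1, CLDN5 and VAT1L lay on the sh1 side, at 0.23 to 0.83.

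Genes of motile cilia, which choroid plexus and ependyma carry, gave a less stable result. Of 27 genes tested, 12 were called higher with sh4 and 1 higher with sh1, with a median of -1.03. The count higher with sh4 was 5 under scaling by totals, 4 without library 2 of sh1, 4 without library 3 of sh1, 7 without library 2 of sh4 and 3 without library 3 of sh4. FOXJ1, the master factor of motile cilia, overlapped between the sets, at 24.8, 33.9 and 44.5 CPM with sh4 and 31.5, 15.9 and 24.5 CPM with sh1. RSPH1, a radial spoke protein, stood at 9.85, 18.5 and 23.9 CPM and 6.60, 4.69 and 5.29 CPM and was called (log2 -1.66 ± 0.33, adjusted p = 0.00702). The member higher with sh1 was RFX4, a factor of the neural tube, at 8.83, 14.1 and 25.9 CPM against 2.27, 3.24 and 3.69 CPM.

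Mesenchymal and fibroblast genes split. Of 34 tested, 10 were higher with sh4 and 3 higher with sh1, with a median of -0.40, and NC was below both sets for 32 of the 34. The genes higher with sh4 were matrix genes apart from the factor MEOX2. LUM and DCN, the proteoglycans lumican and decorin, stood at 2862, 2147 and 2557 CPM and 2701, 2226 and 2546 CPM with sh4 against 729.7, 711 and 886 CPM and 798, 957 and 887 CPM with sh1. The sets were separate, and neither gene had a library standing apart. MFAP4, a microfibril protein, was higher with sh4 by log2 -1.65 ± 0.13, and COL3A1, a fibrillar collagen of soft tissue, by -1.22 ± 0.12. COL1A1, the collagen of bone and skin, at log2 -0.83 ± 0.10 did not reach the fold threshold, and COL3A1 (-0.97) fell below it under scaling by totals.

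The 3 mesenchymal genes higher with sh1 were the factors FOXC1, FOXC2 and TWIST1. FOXC1, a forkhead factor of meninges and head mesenchyme, stood at 11.5 ± 2.86 CPM (SD, n = 3) with sh1 and 3.41 ± 1.45 CPM (SD, n = 3) with sh4, with no overlap (log2 1.74 ± 0.33, adjusted p = 0.00602). TWIST1, a factor of mesenchyme and neural crest, was called at log2 1.10 ± 0.33 (adjusted p = 0.0315), and that call was lost without library 1 or 2 of sh1 (adjusted p = 0.0696 and 0.1) without library 2 of sh4 (0.0712) and, through its fold (0.86), without library 1 of sh4. PRRX1 and PDGFRA, a homeodomain factor and a growth factor receptor of mesenchyme, were not called, with 95% intervals of the log2 fold change of -0.36 to 0.51 and 0.07 to 1.44. The sh1 and sh4 values of both overlapped, while NC was at most 16.8 and 56.2 CPM.

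Endothelial genes were mostly not called, with a median of -0.37. Of 21 tested, 3 (14.3%) were higher with sh4, near the 11.5% of all genes. KDR, the receptor of vascular endothelial growth factor that early mesoderm also expresses, stood at 520.2, 368 and 453 CPM with sh4 and 125, 77.05 and 156 CPM with sh1 (log2 -1.90 ± 0.26). PECAM1 and CDH5, adhesion molecules specific to endothelium, overlapped between the sets, at log2 -0.76 ± 0.31 and -0.58 ± 0.31 (adjusted p = 0.0858 and 0.165). Of the kidney list 7 of 15 genes were higher with sh4 (4 without library 1 of sh1) and 4 higher with sh1. NPHS1, nephrin of the podocyte, was 6.18-fold higher with sh4, at 31.7 to 46.0 CPM against 5.88 to 7.28 CPM, and OSR1, a factor of intermediate and lateral mesoderm, was 2.65-fold higher. The muscle lists gave 5 of 17 genes higher with sh4 for heart and smooth muscle (2 under scaling by totals) and 8 of 17 for skeletal muscle (4 without library 1 and 4 without library 2 of sh1). However, MYOD1, MYOG and MYF5, the factors that make a cell a myoblast, were at most 0.386 CPM in every sh1 and sh4 library. TNNT2, cardiac troponin T, was higher with sh4, at 24.6, 27.4 and 22.1 CPM against 7.09, 10.8 and 6.73 CPM.

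The 4 imprinted genes named here were each higher with sh4. They form no list of their own, although IGF2 is on the choroid plexus list, and were not chosen independently of their values. Their shared direction is therefore no result about imprinted genes as a group. IGF2, insulin-like growth factor 2 (chr11:2129112-2149603 on GRCh38), is expressed by yolk sac, liver and mesenchyme. It stood at 15346, 11852 and 14119 CPM with sh4, 4441, 3508 and 5435 CPM with sh1 and 1545, 1838 and 1504 CPM in NC, a 3.09-fold difference between sh4 and sh1 (log2 -1.63 ± 0.18, adjusted p = 0.00145). H19, the noncoding RNA next to it, stood at 19.2, 15.5 and 19.4 CPM and 1.04, 0.599 and 2.15 CPM. DLK1, a Notch family ligand of fetal tissues, was 3.00-fold higher with sh4, and CDKN1C, the cyclin-dependent kinase inhibitor p57, 3.07-fold higher, at 774, 562 and 718 CPM against 234, 161 and 275 CPM. All 4 genes were separate between sh1 and sh4, as were 61% of all genes tested, and IGF2, H19 and DLK1 were chosen after their values were seen. EGFL6, a secreted growth factor of the EGF family, and PTGDS, prostaglandin D synthase of choroid plexus and meninges, were higher with sh4 by log2 -3.51 ± 0.23 and -3.49 ± 0.44.

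The interferon and antigen presentation list was higher with sh4 for 16 of 30 genes tested, 10 under scaling by totals, and higher with sh1 for none (1 without library 3 of sh4). B2M, the light chain of class I antigens, stood at 1138, 885 and 964 CPM with sh4, 314, 290.5 and 400.2 CPM with sh1 and 120.5, 132 and 127 CPM in NC. IFITM3, an antiviral membrane protein, stood at 542 to 679 CPM against 198 to 263 CPM, but the related IFITM1 was higher in NC (223 to 281 CPM) than with sh4 (167 to 214 CPM) and low with sh1 (35.5 to 56.7 CPM). The log2 fold changes were -1.57 ± 0.15, -1.43 ± 0.13 and -2.05 ± 0.18. ISG15, a core product of interferon signalling, fell short of the fold threshold (adjusted p = 0.0264), with a 95% interval of -1.13 to -0.22.

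Of the 15 genes of the mitochondrial genome, 10 were higher with sh4 (5 under scaling by totals), with a median of -1.18. None of 33 nuclear genes of oxidative phosphorylation was called by edgeR's quasi-likelihood test or DESeq2, with a median of -0.53. By edgeR none reached the fold threshold (lowest log2 -0.81), although 32 had an unadjusted p under 0.05. The nuclear genes summed to 4654 to 5155 CPM with sh4 and 3576 to 3773 CPM with sh1, without overlap. MT-ATP6, a subunit of ATP synthase, stood at 3374, 2785 and 2373 CPM with sh4 and 974, 966 and 907 CPM with sh1 (log2 -1.59 ± 0.14), and NC lay below both at 689.5 to 899 CPM. Nuclear copies of mitochondrial sequence make these counts uncertain to some extent.

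On the sh1 side the neuronal genes led. The 27 genes of the neuron list summed to 5209, 4315 and 5193 CPM in the sh1 libraries, 757, 2159 and 1264 CPM in the sh4 libraries and 6638 to 7316 CPM in NC. The sh1 libraries were alike, while the sh4 libraries ranged almost 3-fold, lowest in library 1 and highest in library 2. Of 27 genes tested, 20 were higher with sh1 and none higher with sh4, beside 7.07% of all genes, with a median of 1.79. The count was 13 without library 1 of sh1, 13 without library 3 of sh4 and 25 without library 2 of sh4.

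NEFM and NEFL, the medium and light neurofilament chains of axons, were higher with sh1 than in both other sets. NEFM stood at 918, 807 and 837 CPM with sh1, 31.6, 171 and 80.1 CPM with sh4 and 206, 211 and 313 CPM in NC. NEFL stood at 582, 461 and 548 CPM, 19.4, 101 and 39.5 CPM and 222, 219 and 277 CPM. The sh1 libraries exceeded all others for both genes, and sh1 was 9.04-fold and 9.90-fold higher than sh4 (log2 3.18 ± 0.55 and 3.31 ± 0.55). For MAP2, the microtubule protein of dendrites, the order was different, with NC highest at 443 to 478 CPM, then sh1 at 117, 99.1 and 166 CPM and sh4 at 13.9, 40.3 and 35.6 CPM (log2 2.08 ± 0.38, adjusted p = 0.00553). DCX, doublecortin of young neurons, was called at log2 2.06 ± 0.58 (adjusted p = 0.0245), a call lost without library 1 or 3 of sh1 (adjusted p = 0.0671 and 0.0615) or library 3 of sh4 (0.0668). The general neuronal genes TUBB3 (a tubulin) and ELAVL4 (an RNA-binding protein) were not called. TUBB3 stood at 354, 260.0 and 402 CPM with sh1 and 45.9, 292 and 86.3 CPM with sh4, and ELAVL4 at 72.4, 54.7 and 74.4 CPM and 2.72, 49.0 and 9.43 CPM. Library 2 of sh4 was several times the others for both, and without it they were called at log2 2.37 and 3.47. STMN2, a neuronal tubulin-binding protein, was not called at 0.95 ± 0.26 and passed at 1.25 without that library, 1.07 without library 2 of sh1, 1.01 with a replicate block and 1.17 under scaling by totals.

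Synapse genes followed, with 16 of 27 higher with sh1, none higher with sh4 and a median of 1.30. SYT1, the calcium sensor of vesicle release, stood at 64.7, 56.8 and 80.0 CPM with sh1 and 12.4, 20.8 and 15.4 CPM with sh4 (log2 2.04 ± 0.21, adjusted p = 0.00126), and NC at 97.9 to 102 CPM. SNAP25, a protein of the fusion complex, was 2.69-fold higher with sh1, and SYT13 and NRXN2, a synaptotagmin and a neurexin, 4.51-fold and 2.36-fold higher. For these 4 genes the sh1 libraries lay between NC and sh4. The glutamatergic list gave 7 of 14 higher with sh1 (4 without library 1 of sh1). GRIK3, a kainate receptor subunit, stood at 78.3, 45.9 and 72.7 CPM with sh1, 2.14, 5.65 and 4.11 CPM with sh4 and 31.9, 26.7 and 27.0 CPM in NC, the largest difference of the list (log2 4.04 ± 0.36, adjusted p = 0.000939). GRIK2, another kainate subunit, was also higher with sh1 than in both other sets, at 33.2 to 48.1 CPM against 4.92 to 13.1 CPM with sh4 and 14.8 to 17.5 CPM in NC. GRIN1, the obligatory subunit of NMDA receptors, stood at 6.21 to 7.47 CPM with sh1 and 0.967 to 1.24 CPM with sh4.

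The other leading genes on the sh1 side included several that neurons express. TRIM67, a ubiquitin ligase of the nervous system, stood at 54.8, 39.6 and 90.4 CPM with sh1, 1.94, 3.36 and 1.93 CPM with sh4 and 24.3, 23.8 and 25.0 CPM in NC (log2 4.66 ± 0.39). ISLR2, a membrane protein of growing axons, stood at 76.7, 55.0 and 58.8 CPM with sh1 and 1.94, 4.71 and 4.23 CPM with sh4, with NC far above both at 291 to 339 CPM. The receptor DCC, which reads the axon guidance cue netrin, was 7.53-fold higher with sh1 and also higher still in NC (119 to 127 CPM against 62.6 to 93.1 CPM). By contrast, the adhesion molecule NCAM2, KIAA1755 and the protease PAPPA2 were highest with sh1, with PAPPA2 at 289, 217 and 250.1 CPM against 17.6, 39.4 and 15.6 CPM with sh4 and 28.5, 25.0 and 27.6 CPM in NC. The potassium channel gene KCNA2 was level between sh1 (33.9 to 41.8 CPM) and NC (36.9 to 38.2 CPM) and low with sh4 (2.07 to 8.89 CPM). SEZ6L, a neuronal membrane protein, and MEGF10, an engulfment receptor of glia, were higher with sh1 by log2 2.94 ± 0.50 and 2.87 ± 0.51.

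**Figure D5:**
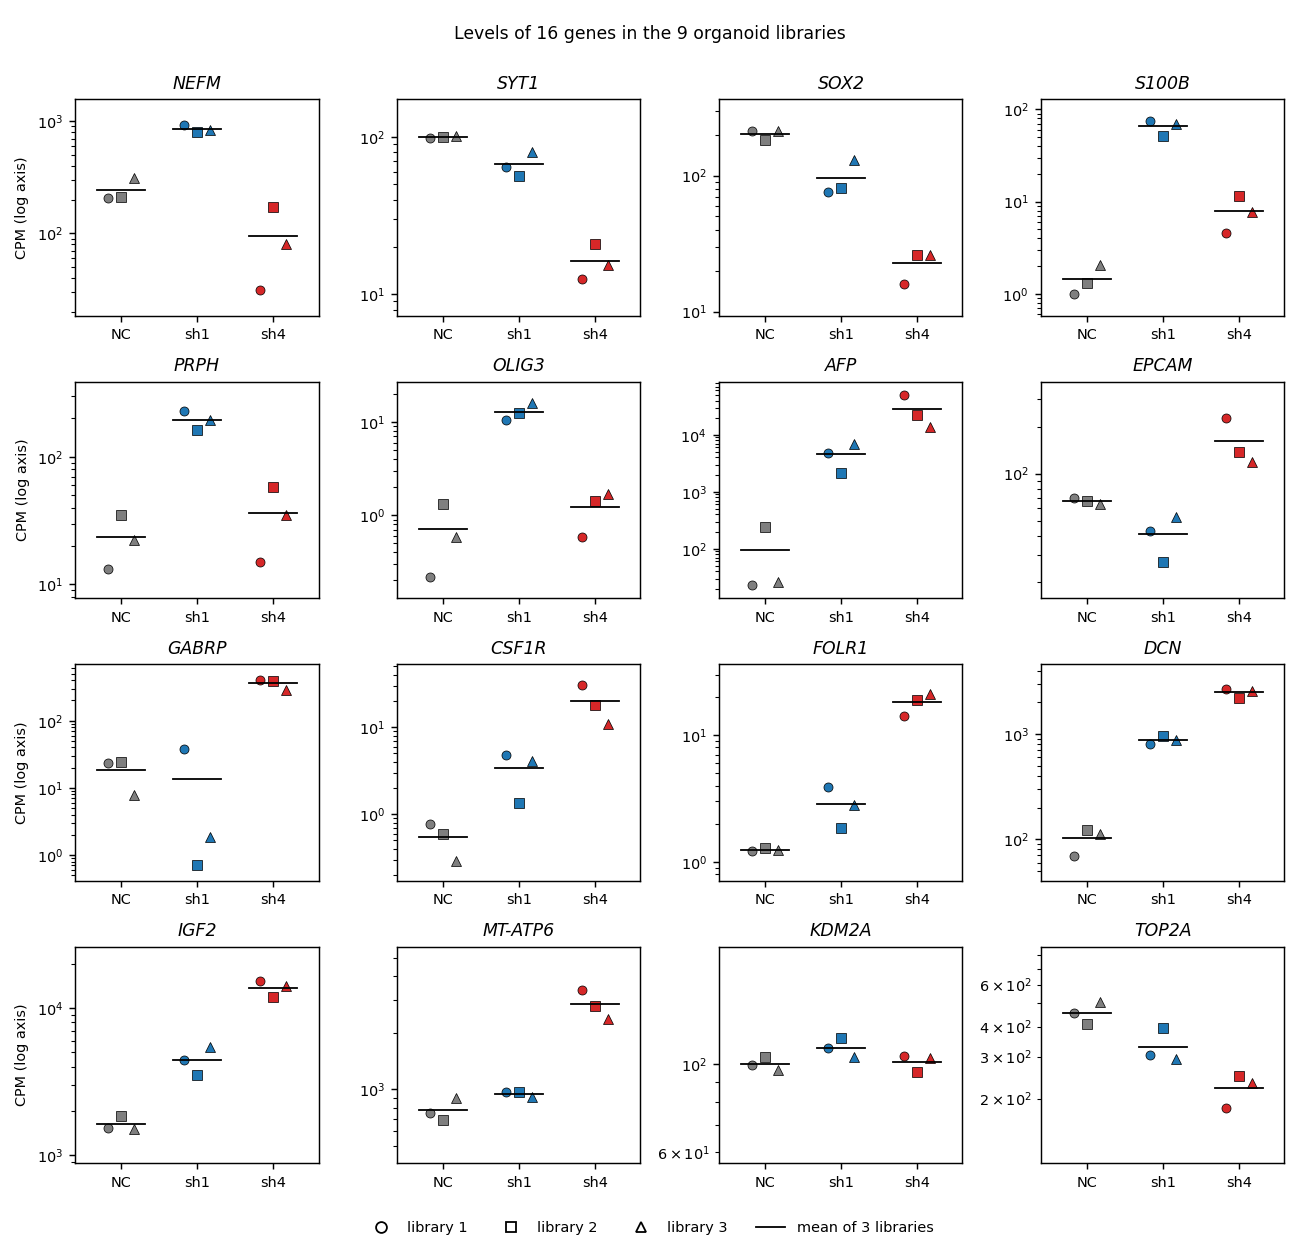
CPM (y axes, log scale) of 16 genes in the 9 organoid libraries, by set (x axes). Each point is a library and each bar the mean of 3. NEFM, S100B and OLIG3 are highest with sh1, AFP, GABRP and DCN are highest with sh4, and KDM2A is 104 to 116 CPM with sh1 and 95.6 to 105 CPM with sh4.

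Neural stem cell and radial glia genes were higher with sh1 for 11 of 23 tested and higher with sh4 for 2 (1 without library 3 of sh1, without library 1 of sh4 or under scaling by totals), with a median of 0.84, and NC was above both sets for 16. SOX2, the factor that maintains neural stem cells, stood at 75.8, 80.9 and 129 CPM with sh1, 15.9, 25.9 and 26.0 CPM with sh4 and 213, 181 and 212 CPM in NC (log2 2.07 ± 0.27, adjusted p = 0.00193). SOX1, a related factor of neuroectoderm, stood at 6.32, 11.01 and 8.93 CPM, 2.40, 2.71 and 3.20 CPM and 58.6, 51.4 and 53.4 CPM. The order NC, sh1, sh4 held for both with no overlap. PTPRZ1, a phosphatase of radial glia, was 6.74-fold higher with sh1 than with sh4, and NES, the intermediate filament nestin, 2.76-fold higher. PAX6, the eye and cortex factor, was not called, at 10.3, 18.3 and 14.9 CPM with sh1 and 4.21, 10.9 and 9.003 CPM with sh4, and both were far under NC at 143 to 206 CPM. PROM1, a membrane protein of neural stem cells and of many epithelia, went the other way, at 53.5 to 73.1 CPM with sh4 against 16.3 to 28.95 CPM with sh1.

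Progenitors about to become neurons gave 7 of 18 genes higher with sh1, 14 without library 2 of sh4 and 4 without library 3 of sh1. NEUROG2, a proneural factor of dorsal progenitors, stood at 2.67, 2.29 and 3.25 CPM with sh1, 0.130, 0.530 and 0 CPM with sh4 and 14.7 to 18.9 CPM in NC. EOMES, a factor of intermediate progenitors, was at 1.25, 1.63 and 3.09 CPM with sh1 and at most 0.242 CPM with sh4, close to the limit of detection. SOX4 and SOX11, factors of newborn neurons, were well measured, and both were higher with sh1, at log2 1.23 ± 0.14 and 1.74 ± 0.28. The Notch list had 7 of 20 genes higher with sh1 and none higher with sh4. HES5, the Notch target of neural stem cells, stood at 4.09, 4.30 and 5.24 CPM with sh1 and 0.324, 1.24 and 0.604 CPM with sh4, and at 29.3 to 45.5 CPM in NC, while the mean of HEY2, another Notch target, was highest with sh1 (15.2 to 25.0 CPM against 9.62 to 15.2 CPM in NC).

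Of 13 tested genes of GABA neurons and ventral forebrain, 6 were higher with sh1 and 1 higher with sh4 (2 without library 3 of sh1 or library 2 of sh4), and NC was above both sets for 12. The list summed to 266 to 295 CPM with sh1, 97.8 to 150.4 CPM with sh4 and 719.7 to 864 CPM in NC. GAD2 and SLC32A1, the synthetic enzyme and vesicle transporter of GABA neurons, were at most 0.324 and 0.544 CPM in both sets, against up to 36.8 and 30.2 CPM in NC. These genes fell under the filter and were not tested. In the dorsal forebrain list 11 of 18 genes were higher with sh1 and none higher with sh4 (1 without library 3 of sh4). LHX2, a factor of forebrain and hem, stood at 6.38, 3.32 and 20.1 CPM with sh1 and 0.778, 1.59 and 1.99 CPM with sh4, and TBR1, a factor of early glutamatergic neurons, at 2.78, 1.42 and 10.9 CPM and 0.194, 0.294 and 0.423 CPM. Both were highest in library 3 of sh1. EMX2, a factor of dorsal telencephalon and of kidney, was highest there too, and its call (log2 2.03 ± 0.57) was lost without that library (adjusted p = 0.0575). DLX1 and DLX2, factors of ventral forebrain and of neural crest, were higher with sh1 by log2 2.96 ± 0.28 and 1.83 ± 0.25, with NC higher still.

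For most genes of the dorsal midline and of the HOX clusters, in contrast, NC lay below both sets. The roof plate and cortical hem list was higher with sh1 for 8 of 26 genes and higher with sh4 for none (1 without library 2 of sh1), and NC was below both sets for 15. RSPO2, an amplifier of WNT signals made by the hem, stood at 93.3, 89.5 and 189 CPM with sh1, 47.3, 39.97 and 47.1 CPM with sh4 and 3.40, 13.9 and 9.38 CPM in NC. WNT1, the ligand of the dorsal midbrain and roof plate, stood at 25.2, 18.5 and 18.9 CPM and 2.92, 5.95 and 5.86 CPM. OLIG3, a factor of dorsal hindbrain, spinal cord and thalamus that is on the diencephalon list and not on this one, stood at 10.4, 12.4 and 15.8 CPM and 0.583, 1.41 and 1.69 CPM. These 3 genes were separate between the sets, with log2 fold changes of 1.47 ± 0.29, 2.08 ± 0.29 and 3.37 ± 0.36. LMX1A and WNT3A, which define the roof plate and the hem, overlapped and were not called (95% intervals -0.12 to 1.48 and -0.21 to 1.17). Of the defining genes only RSPO2 was called, as WNT8B (log2 1.01) missed on its adjusted p and BMP4 (-0.95) went the other way under the fold threshold. Of 34 HOX genes tested, 5 (14.7%) were higher with sh1 and 1 (2.94%) higher with sh4, beside 7.07% and 11.5% of all genes. The count higher with sh1 ran from 2 without library 2 of sh1 or library 3 of sh4 to 8 without library 2 of sh4 or under scaling by totals. It was 3 without library 1 or library 3 of sh1. The count higher with sh4 was 0 without library 1 or 2 of sh1, without library 2 of sh4 or under scaling by totals, and 2 without library 3 of sh1. NC was below both sets for 32 of them. HOXA5, a gene of the caudal hindbrain and cervical cord, stood at 9.59, 11.8 and 10.2 CPM with sh1 and 0.194, 2.35 and 1.39 CPM with sh4.

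Some genes of neural crest derivatives and placodes were higher with sh1 than with sh4, and several of them exceeded NC as well. Of 18 genes of peripheral neurons and placodes, 5 were higher with sh1 and 1 higher with sh4. PRPH, the intermediate filament peripherin of peripheral neurons, stood at 227, 162 and 196 CPM with sh1, 15.03, 58.3 and 35.3 CPM with sh4 and 13.3, 34.9 and 22.3 CPM in NC. DRGX, a factor of sensory neurons, stood at 23.2, 18.3 and 22.9 CPM, 0.648, 4.30 and 1.45 CPM and 1.76, 2.23 and 2.87 CPM. Every sh1 library was above every sh4 and NC library for both genes, with log2 fold changes over sh4 of 2.42 ± 0.43 and 3.31 ± 0.55. ISL1 was higher with sh1 by 1.64 ± 0.29, at 56.1 to 64.1 CPM against 13.2 to 29.3 CPM. POU4F1, a factor of sensory neurons, was at 1.10, 55.7 and 6.28 CPM in the sh4 libraries, so that library 2 matched the sh1 libraries (63.3, 45.0 and 70.5 CPM), and it was not called. Without library 2 of sh4 it was called at log2 4.00, and 12 of the list were called higher with sh1, beside 8 under scaling by totals.

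The Schwann cell and melanocyte list had 6 of 14 genes higher with sh1 (10 without library 2 of sh4) and 1 higher with sh4 (0 without library 3 of sh4 or under scaling by totals). S100B, a calcium-binding protein of Schwann cells and astrocytes, stood at 75.5, 51.5 and 69.7 CPM with sh1, 4.60, 11.5 and 7.79 CPM with sh4 and 0.988, 1.33 and 2.05 CPM in NC (log2 3.03 ± 0.32, adjusted p = 0.00128). CDH19, a cadherin of Schwann cell precursors, stood at 39.4, 27.4 and 35.8 CPM, 1.04, 8.65 and 4.05 CPM and 2.42, 3.83 and 4.11 CPM. The sh1 libraries were clear of the other sets for both genes. GFAP, the filament of astrocytes, was at most 0.386 CPM in every sh1 and sh4 library. Among neural crest genes 6 of 20 were higher with sh1 (10 under scaling by totals) and 1 higher with sh4. Of the 5 defining genes only FOXD3 was called. TFAP2A (log2 0.11), TFAP2B (-0.16), PAX3 (0.98) and SOX10 were not. FOXD3, a factor of premigratory crest, stood at 13.6, 9.70 and 12.9 CPM with sh1 and 0.389, 3.47 and 0.725 CPM with sh4, and NGFR, the low-affinity neurotrophin receptor, at 167, 129.9 and 151 CPM and 32.6, 57.9 and 35.95 CPM. SOX10, the factor of crest and all its glia, was at 101, 63.4 and 89.9 CPM with sh1 and 4.60, 50.2 and 11.7 CPM with sh4, and missed the threshold (adjusted p = 0.0657). It passed without library 2 of sh4 (log2 3.38), under scaling by totals (2.13), without a count filter (1.94) and in the fit over all 9 libraries (1.93).

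Several basic programmes gave no call. None of 28 S phase genes and none of 28 mitosis genes was called, with medians of 0.25 and 0.28. By edgeR's quasi-likelihood test 10 and 9 of them had an unadjusted p under 0.05, and DESeq2 called none either. Under scaling by totals 2 mitosis genes were called higher with sh1. TOP2A, the topoisomerase of dividing cells, stood at 303, 396 and 292 CPM with sh1 and 183, 249.7 and 233 CPM with sh4, a log2 fold change of 0.57 ± 0.15 (adjusted p = 0.0204) under the fold threshold. Of 12 pluripotency genes none was called, although 1 was called higher with sh1 in the fit over all 9 libraries and without library 1 of sh1 or any 1 library of sh4, and 1 higher with sh4 without library 1 or 3 of sh1 or library 3 of sh4. POU5F1, the pluripotency factor OCT4, was at most 1.05 CPM with sh1 and 1.04 CPM with sh4, whereas NC held 307, 186 and 199 CPM. None of 47 cytoplasmic ribosomal protein genes (median -0.15) and none of 22 enzymes and readers of histone H3 lysine 36 methylation (median 0.19) was called, and DESeq2 called none in these 3 lists. In the histone list 1 gene was called higher with sh1 under scaling by totals and 1 without library 2 of sh4. Unadjusted p-values under 0.05 numbered 4, 25 and 13 in the same order. In that last list KDM2B, the closest relative of KDM2A, stood at 52.2, 55.7 and 47.8 CPM with sh1 and 25.5, 34.0 and 34.5 CPM with sh4 (log2 0.72 ± 0.13, adjusted p = 0.00503). SETD2 and NSD1, methyltransferases of that residue, differed by log2 0.29 ± 0.06 and 0.31 ± 0.07. With TMM scaling no gene of this list reached the fold threshold, over a range of log2 -0.48 to 0.89. The list sums did not overlap, at 1887 to 2033 CPM with sh1 and 1402 to 1529 CPM with sh4.

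Of 20 genes of MAPK feedback and ETS factors, which respond to the signalling pathway named in the title of the study, 3 were higher with sh1 and 2 higher with sh4. These shares of 15% and 10% stood beside 7.07% and 11.5% of all genes, and the median was 0.23. Those higher with sh1 were ETV5, ETV1 (log2 1.15) and SPRED3 (1.12), and those higher with sh4 were ETV4 (-1.16) and DUSP5 (-1.84). Under scaling by totals the count higher with sh1 was 7, and without library 1 of sh4 it was 1. The count higher with sh4 was 0 without library 1 of sh1, and 1 without library 2 of sh1, without library 1 or 2 of sh4 or under scaling by totals. ETV5, an ETS factor induced by the pathway, stood at 31.3, 23.2 and 29.6 CPM with sh1, 9.20, 14.5 and 6.65 CPM with sh4 and 50.4, 47.1 and 44.5 CPM in NC (log2 1.47 ± 0.28, adjusted p = 0.00621). DUSP6, the phosphatase that limits ERK, was at log2 0.85 ± 0.19, under the fold threshold, and SPRY4, an inhibitor of receptor signals, overlapped at 8.34 to 12.3 CPM and 6.40 to 10.54 CPM. DUSP6 passed at 1.10 under scaling by totals and at 1.01 without library 2 of sh1.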

How the data were processed

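RNA-seq libraries of day 30 organoids were used, 3 per label. The deposited table holds expected counts per gene that need not be whole (91.0% of values are), with no normalization by the authors. STAR, featureCounts and GRCh38.p13 are named in the submitters' processing notes, and versions and the strand setting are not given in the sources used here, so reads of overlapping and antisense genes cannot be told apart. Values were rounded to whole counts. Symbols were matched through a table of gene names for 42047 of 61544 gene IDs, positions came from GENCODE 29, and promoters from RefSeq on GRCh38.p14.

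Genes were kept by filterByExpr (minimum count 10) and tested with edgeR 4.0.16 in R 4.3.3 (TMM scaling, quasi-likelihood test over the 6 sh1 and sh4 libraries, Benjamini-Hochberg adjustment), with a log2 fold change of at least 1 and an adjusted p under 0.05 as the call. The procedure was tested on simulated data. NC values entered only levels. Alternatives were other scalings, filters, fits and DESeq2 1.42.0, a replicate block and leaving out each library. Libraries held 15899243 to 18853737 counts. Replicate libraries of a label all differed by more than counting noise (chi-square over its degrees of freedom, 5.47 to 54.9), so none was counted as a duplicate. The neural progenitor table was not used, and some genes are not reported here.

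Members and gene lists were chosen with earlier results of these data known. Named genes are the 15 highest and 15 lowest fold changes among called genes with mean log2 CPM of at least 3, 5 defining genes per list and up to 4 further members by adjusted p. CDH17, VIL1, MUC13, GUCY2C, LGALS4, TFF1, IGF2, H19, DLK1, FGA and AHSG were added after their values were seen, as were the uncalled blood and microglia genes and counts for whole lists at an unadjusted p.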

Additional observations from a re-analysis of the deposited data

How the results depend on the processing

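With libraries scaled by their totals alone 3699 genes were called, 2052 higher with sh1 and 1647 higher with sh4. Without the fold threshold 8697 genes passed, 4107 higher with sh1 and 4590 higher with sh4. Leaving out 1 library at a time gave 2849 to 3827 calls, with 1010 to 1658 higher with sh1 and 1766 to 2172 higher with sh4. Over the same fits the share of sh4-higher genes with NC below both sets ran from 67.9% to 73.2%, and that of sh1-higher genes with NC above both from 56.5% to 61.9%. DESeq2 called 3474 genes, with 6 adjusted p-values not given. No gene called in the first analysis was called in the opposite direction in any alternative run. Of 139 called genes named in the text, 127 were called the same way in every alternative run that tested them and 12 lost their call in at least 1. A gene that a run did not test was not counted as lost in it. Of the 164 named genes with a test, 154 were tested at a minimum count of 50 and 163 without mitochondrial genes. CALB2, DUSP5, ETV1, ETV4 and SPRED3, named only with their lists, are not among the 139. The labels give sh1 and sh4 the same replicate numbers, but same-numbered libraries did not deviate together (correlations of 0.036, 0.0228 and -0.207), and not every library correlated best with its own number. With the replicate block 3190 genes were called, 1233 higher with sh1 and 1957 higher with sh4. With 3 libraries per label, genes of a few CPM, such as the factors of epithelium and neurons, rest on few counts.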

Other observations

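Of 22 genes of cholesterol synthesis, 5 were higher with sh4 (2, 3 and 7 without library 1, 2 or 3 of sh1, 2 without library 1 of sh4 and 2 under scaling by totals), with a median of -0.58. INSIG1, the retention protein of the sterol sensor, stood at 221, 127 and 89.4 CPM with sh4 and 54.3, 41.4 and 63.3 CPM with sh1. The 3 metallothioneins tested, MT1E, MT1X and MT2A, which bind metals and are near copies of each other, were higher with sh4, as was the zinc transporter SLC30A1 on the same list. Under scaling by totals 2 of these 4 genes were called. MT1X also lost its call with DESeq2, with no count filter, with a replicate block and without library 1 or 3 of sh1 or library 3 of sh4 (adjusted p from 0.0539 to 0.0859), and SLC30A1 without library 1 of sh4 (log2 -0.95). MT2A stood at 16.1, 13.5 and 12.6 CPM with sh4 and 1.91, 1.96 and 2.81 CPM with sh1. Of 26 genes of the stress response, 5 were higher with sh1 and 1 higher with sh4. ASNS, asparagine synthetase, stood at 62.4, 55.8 and 73.8 CPM with sh1 and 24.9, 29.1 and 23.9 CPM with sh4, and PSAT1, of serine synthesis, was higher with sh1 by log2 1.19 ± 0.15.

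The WNT list of 34 genes had 5 (14.7%) higher with sh1 and 5 (14.7%) higher with sh4, beside 7.07% and 11.5% of all genes. Under scaling by totals 8 were higher with sh1. FRZB and DKK1, secreted WNT inhibitors, were higher with sh4 by log2 -2.20 ± 0.29 and -1.79 ± 0.20, and the receptor FZD10 was higher with sh1 by 1.90 ± 0.14. Cajal-Retzius genes, of the earliest neurons of the cortical surface, were higher with sh1 for 8 of 14 and higher with sh4 for 1. Of the 5 defining genes only LHX5 was called higher with sh1. RELN fell short of the fold threshold, and TP73 and EBF3 did not pass on adjusted p. CALB2 was called higher with sh4 (log2 -1.19), a call lost under scaling by totals and whenever a library was left out. DLL3, ZIC2, TBR1 and LHX1, also called higher with sh1, are on other lists too. LHX5, a factor of Cajal-Retzius and other neurons, stood at 6.92, 8.39 and 14.3 CPM with sh1 and 1.17, 2.12 and 2.18 CPM with sh4. Of 18 hindbrain genes 4 were higher with sh1, 9 under scaling by totals, with DESeq2 or in the fit over all 9 libraries, 2 without library 2 of sh1 and 8 without library 2 of sh4. CYP26A1, an enzyme that degrades retinoic acid, stood at 3.00, 3.43 and 2.26 CPM with sh1 and 0.0648, 0.824 and 0.665 CPM with sh4.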
